A study of Mus musculus with 12 samples.

Results

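T-cell-receptor signalling genes encode the kinases, adaptors, enzymes, receptors and inhibitors that carry a signal from the T-cell receptor into the cell and switch it off again. The 39 members were chosen by name, with earlier results of these data known. Of them, 38 had a probe set that the array annotation gives to that gene alone, of 18193 genes represented in this way. Lck, the Src-family kinase bound to CD4 and CD8, was not analysed here. Where a gene had several such probe sets, the one that was brightest on average stands for it. Of all genes, 15420 were tested, among them all 38 members, each of which lay above the filter on low values on all 12 arrays.

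The T-cell receptor has no enzyme activity of its own. When it binds its ligand, the Src-family kinases Lck and Fyn phosphorylate the CD3 and zeta chains, Zap70 or its relative Syk docks there, and the adaptors Lat and Lcp2 are phosphorylated in turn and gather phospholipase C gamma, exchange factors for Ras and Rac, and the route to NF-kappaB. Calcium release then lets NFAT transcription factors enter the nucleus. Phosphatases, ubiquitin ligases, diacylglycerol kinases and the kinase Csk restrain each of these steps. CD4+CD8+ thymocytes use this pathway during selection, and Mbd2 is a protein that binds methylated CpG sites and is known to recruit repressors.

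Intensities came from mouse Affymetrix 430 2.0 arrays, with 3 arrays in each of 4 groups. The T-ALL MBD2-/- group was GFP+ bone marrow leukaemia cells with MBD2 deleted, and the T-ALL wild-type group was such cells with MBD2 intact. Both leukaemias were driven by Notch1 and were sorted from transplanted recipient mice once over 50% of blood leukocytes were GFP+. The DP MBD2-/- group was CD4+CD8+ double-positive thymocytes of MBD2-deleted mice at steady state without transplantation, and the DP wild-type group was the same cells of mice with MBD2 intact. The labels give no strain, age or sex, no vector or promoter behind the leukaemia, and do not say whether the samples of a group came from separate animals, so each p-value reflects the spread among these samples alone, which may be technical.

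The probe set of Mbd2 averaged 54.4 ± 12.4 in T-ALL MBD2-/- cells and 820.4 ± 119 in T-ALL wild-type cells, and 72.1 ± 10.7 in DP MBD2-/- and 1136 ± 206 in DP wild-type thymocytes (intensity, SD, n = 3 each), as the genotype labels state. Notch1 averaged 5664 ± 1279 in T-ALL MBD2-/- cells and 1457 ± 139.9 in T-ALL wild-type cells, and 1557 ± 213 in DP MBD2-/- and 1596 ± 189 in DP wild-type thymocytes. By limma, Notch1 was higher in T-ALL MBD2-/- than in T-ALL wild-type cells (log2 difference 1.92, adjusted p = 0.000744). It was also higher in T-ALL MBD2-/- cells than in DP MBD2-/- thymocytes (log2 difference 1.83, adjusted p = 0.000495). Between the wild-type groups the difference of Notch1 did not pass (log2 difference -0.13, adjusted p = 0.53). The part of Notch1 in the differences of the members was not tested. A control transcript added before labelling gave a signal on 5 arrays (T-ALL MBD2-/- replicate 1, and replicates 1 and 2 of both wild-type groups) and none on the other 7. The Gapdh 3' to 5' ratio, a measure of RNA length, was 0.964 to 1.14 on the 5 arrays with that signal and 1.12 to 3.68 on the 7 without it. All 3 DP MBD2-/- arrays belong to the set without signal. Marker lists also differed between the leukaemias. All 5 T-cell markers lay above the highest control without a target (intensity 35.3) in each group. Their summed level was 12844 to 16581 in T-ALL MBD2-/- and 16654 to 20020.2 in T-ALL wild-type cells. Thy1 (mean 1186 against 6100) and Cd3g (2468 against 3396) were lower in T-ALL MBD2-/- cells. The means of Cd3d (7282 against 6247), Cd3e (2582 against 2177) and Cd247 (1033 against 747) were higher there. The 6 DP-thymocyte markers with a probe set summed to 319.8 to 652 in T-ALL MBD2-/- cells and 6257 to 9744 in T-ALL wild-type cells. The sums were 21732 to 31679.9 in DP MBD2-/- and 22763 to 32856 in DP wild-type thymocytes. Rag2 lay below the control in both leukaemias, and Rag1 (mean 18.5) and Ptcra (31.6) did so in T-ALL MBD2-/- cells. In T-ALL wild-type cells Rag1 averaged 39.4, against 11101 in DP wild-type thymocytes, whereas Ptcra averaged 1583, against 381. The 6 mast-cell markers summed to 7742 to 9164 in T-ALL MBD2-/- and 79.0 to 91.6 in T-ALL wild-type cells, of which Cpa3, Kit and Mcpt8 averaged above the control in the MBD2-/- leukaemias and Fcer1a, Ms4a2 and Cma1 did not. The 3 natural-killer markers with a probe set summed to 227 to 378 in T-ALL MBD2-/- and 62.6 to 72.0 in T-ALL wild-type cells. That difference was nearly all Klrd1 (mean 266 against 14.3). Eomes averaged 36.7 and 33.7, near the control, and Ncr1 lay below it in both. The 9 myeloid markers summed to 282 to 735 in T-ALL MBD2-/- and 906 to 1759 in T-ALL wild-type cells. Most of that difference was S100a8 (mean 149 against 538) and S100a9 (140 against 461). The part of these markers in the differences below was not tested. In bulk samples, fewer cells of a type and less RNA per cell cannot be told apart.

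The first comparison sets T-ALL MBD2-/- against T-ALL wild-type cells, which also differed in Notch1 and in the markers above. These differences cannot be told apart from the deletion of MBD2 itself. Of the 38 members, 13 rose in T-ALL MBD2-/- cells, 1 fell and 24 did not pass the test, where 9.19% of all genes tested rose and 6.98% fell. The median log2 difference was 0.39 over the members and -0.06 over all genes tested. The genes that rose were the kinases Fyn, Syk and Prkcq, the adaptors Trat1, Tespa1 and Lcp2, and Plcg1, Malt1, Nfatc1 and Nfatc2. They also included the inhibitors Ptpn22, Ubash3b and Cblb. Zap70, Lat, Grap2, Vav1, Rasgrp1, Bcl10 and Nfatc3 were among the members that did not pass. The gene that fell was the adhesion receptor Cd2. With the replicate number as a block, 17 members were higher and 2 lower, where 1935 of all 15420 genes tested were higher and 1936 lower. This pairing was taken from the data, and the labels do not state it. The T-ALL genotypes did not overlap for any of the 14 called members, a share that was not counted over all genes tested. Each therefore had to keep its direction, which adds no support, among the arrays with the added control transcript and among those without it. Among those with it, 1 MBD2-/- array against 2 wild-type arrays, Prkcq did not pass (log2 difference 0.56, adjusted p = 0.0626), and among those without it, with 2 arrays against 1, no member passed. A lone array is assumed there to vary like the other group. All 14 passed with that set of arrays as a block and, in a fit added after seeing the data, with the Gapdh ratio as a covariate. Values are limma coefficients on log2(intensity + 16), which understates the change of dim probe sets, with Benjamini-Hochberg adjustment over all 15420 genes and a threshold of 0.05.

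**Figure D1:**
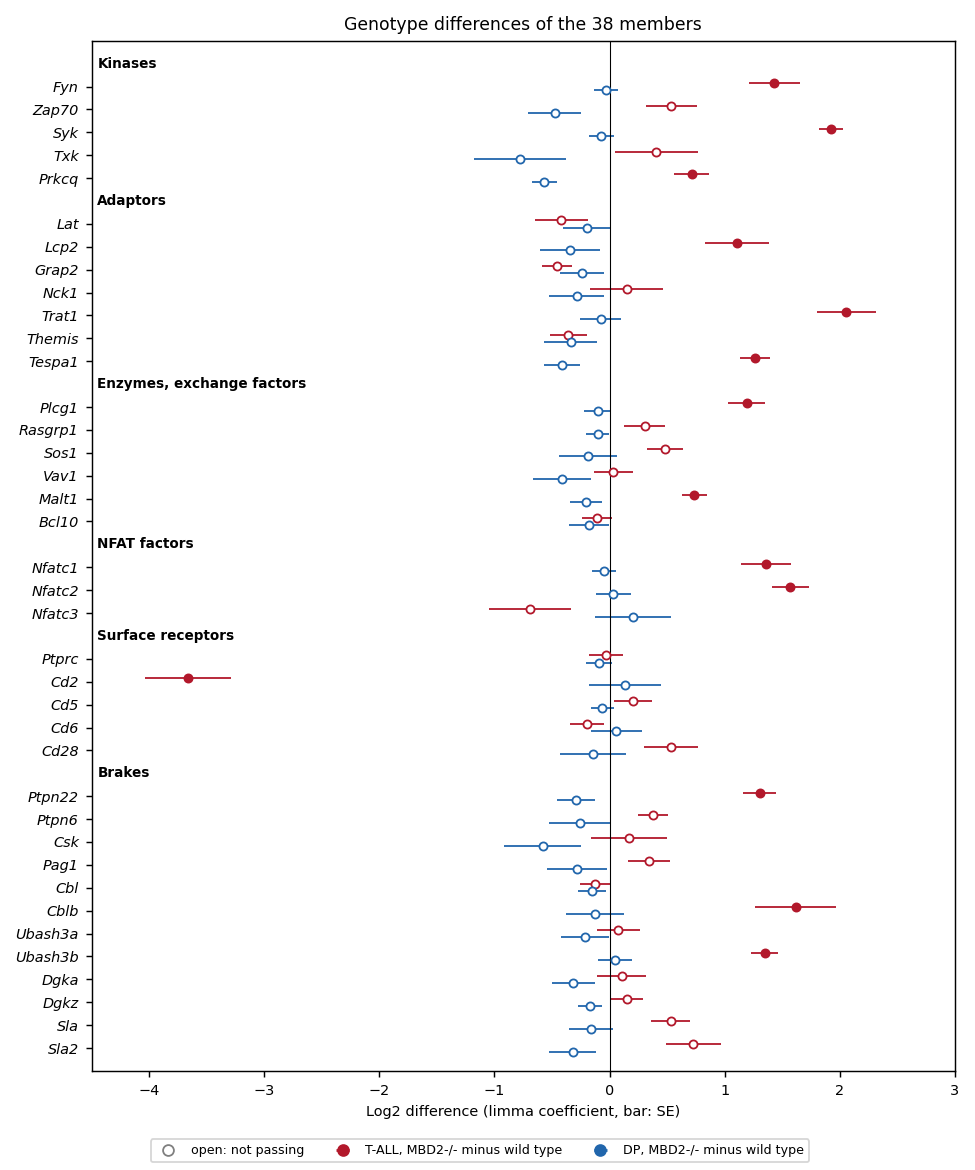
Log2 difference of the 38 members by role between MBD2-/- and wild type, in T-ALL (red) and in DP thymocytes (blue), with 3 arrays per group; bars are SE and open points did not pass. In T-ALL 13 red points are filled to the right of 0 and Cd2 lies far to the left at -3.66, while no blue point is filled.

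Of the 5 kinases analysed, 3 rose, none fell and 2 did not pass. Syk, the relative of Zap70 that is used before and beside it in developing T cells, had 129, 131 and 137 in T-ALL MBD2-/- cells, against 27.5, 21.0 and 21.4 in T-ALL wild-type cells. The groups were far apart, and all 3 wild-type values lay under the highest control without a target, so that Syk was at least 3.75-fold higher in the MBD2-/- leukaemias (log2 difference 1.92, SE 0.10, adjusted p = 6.43e-05). Fyn, a Src-family kinase that phosphorylates the receptor chains, had 548, 620.5 and 998 in T-ALL MBD2-/- cells and 247, 226 and 276 in T-ALL wild-type cells. The lowest MBD2-/- value of Fyn was above the highest wild-type value, and the difference passed (log2 difference 1.43, SE 0.22, adjusted p = 0.00589). Prkcq, the protein kinase C that links the receptor to NF-kappaB, had 1428, 1736 and 1427 in T-ALL MBD2-/- cells and 1117, 835 and 841 in T-ALL wild-type cells. It also rose without overlap (log2 difference 0.71, SE 0.15, adjusted p = 0.021), but passed in only 3 of the 6 fits that left out 1 array (adjusted p 0.0605 to 0.0925 in the others, without T-ALL wild-type replicate 2 or 3 or MBD2-/- replicate 2).

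Zap70, the kinase that docks on the phosphorylated receptor, had 1902, 2084 and 1477 in T-ALL MBD2-/- cells and 1513, 1384 and 903 in T-ALL wild-type cells. These groups overlapped, because the lowest MBD2-/- value lay under the highest wild-type value, and the difference did not pass (log2 difference 0.54, SE 0.22, adjusted p = 0.168); with the replicate block the adjusted p was 0.0189. Txk, a Tec-family kinase, averaged 83.6 ± 29.6 in T-ALL MBD2-/- and 61.6 ± 31.3 in T-ALL wild-type cells (SD, n = 3 each), did not pass (adjusted p = 0.534), and lay under the highest control in T-ALL wild-type replicate 3.

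Of the 7 adaptors, 3 rose and 4 did not pass. Trat1, a transmembrane adaptor found with the receptor complex, had 1371, 1566 and 1467 in T-ALL MBD2-/- cells, against 249, 299.7 and 523 in T-ALL wild-type cells. All 3 MBD2-/- values were above the wild-type ones (log2 difference 2.06, SE 0.25, adjusted p = 0.00212), a 4.16-fold change on the scale with the added constant. Tespa1, which is needed for thymocyte selection in mice, had 1458, 1532 and 1359.7 in T-ALL MBD2-/- cells and 704, 541 and 548 in T-ALL wild-type cells. All 3 of its MBD2-/- values were above the wild-type ones (log2 difference 1.27, SE 0.13, adjusted p = 0.00096). Lcp2, the scaffold SLP-76 that gathers the enzymes phosphorylated by Zap70, averaged 1786 ± 395 in T-ALL MBD2-/- and 838 ± 262 in T-ALL wild-type cells (SD, n = 3 each). Its groups did not overlap either (log2 difference 1.11, SE 0.28, adjusted p = 0.0382), but it lost the call in 5 of the 6 fits that left out 1 array, all but the one without MBD2-/- replicate 3 (adjusted p 0.0505 to 0.108), and without the filter or with a constant of 64 (0.0645 and 0.066).

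Lat, the membrane scaffold that Zap70 phosphorylates, had 3559.6, 2083 and 2366 in T-ALL MBD2-/- cells and 3589.9, 4142 and 2841 in T-ALL wild-type cells. The groups overlapped and Lat did not pass (log2 difference -0.42, SE 0.23, adjusted p = 0.296). Grap2, the adaptor Gads that joins Lat to Lcp2, had 40.7, 38.8 and 51.3 in T-ALL MBD2-/- cells and 72.8, 55.7 and 69.1 in T-ALL wild-type cells. Its values were lower in the MBD2-/- leukaemias without overlap, yet missed the threshold (log2 difference -0.46, SE 0.13, adjusted p = 0.0605) and passed with the replicate block (adjusted p = 0.0285) among other settings. Themis, which sets the signal threshold in thymocytes, and Nck1, which links the receptor to the cytoskeleton, did not pass either (log2 difference -0.36, adjusted p = 0.2 for Themis, and 0.15 and 0.822 for Nck1).

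Of the 6 enzymes, exchange factors and signalling partners, 2 rose and 4 did not pass. Plcg1, the phospholipase that makes the messengers for calcium and diacylglycerol signals, had 1691, 1585 and 1282 in T-ALL MBD2-/- cells and 697, 540.3 and 734 in T-ALL wild-type cells. Its lowest MBD2-/- value stood well above its highest wild-type value (log2 difference 1.19, SE 0.16, adjusted p = 0.00313). Malt1, a protease that acts on the route to NF-kappaB, had 262, 225 and 242 in T-ALL MBD2-/- cells and 137, 128 and 154 in T-ALL wild-type cells. The difference of Malt1 was smaller but also without overlap (log2 difference 0.74, SE 0.11, adjusted p = 0.00474). Its partner Bcl10 averaged 635 ± 58.5 in T-ALL MBD2-/- and 686 ± 89.0 in T-ALL wild-type cells (SD, n = 3 each) and did not pass (adjusted p = 0.67). Rasgrp1, an exchange factor that activates Ras at the membrane, had 949.5, 1386 and 1416 in T-ALL MBD2-/- cells and 1123, 969 and 899 in T-ALL wild-type cells, with overlapping groups (adjusted p = 0.331). The second Ras exchange factor, Sos1, and the Rac exchange factor Vav1 had log2 differences of 0.48 and 0.03 (adjusted p = 0.0849 and 0.931).

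Among the 3 NFAT factors, which act once calcineurin has removed their phosphates, 2 rose and 1 did not pass. Nfatc1 had 619.6, 420.4 and 784 in T-ALL MBD2-/- cells and 238, 201 and 223 in T-ALL wild-type cells. The spread among its MBD2-/- arrays was wide, but all 3 were above the wild-type arrays (log2 difference 1.36, SE 0.22, adjusted p = 0.00673). Nfatc2 had 441, 476 and 529 in T-ALL MBD2-/- cells and 190.5, 123 and 147 in T-ALL wild-type cells. It rose on this probe set (log2 difference 1.57, SE 0.16, adjusted p = 0.000963), while the mean over all its probe sets gave 0.24 with an adjusted p of 0.0525. Nfatc3 had 506, 275 and 803 in T-ALL MBD2-/- cells and 734, 699.7 and 961 in T-ALL wild-type cells, with overlapping groups and no call (log2 difference -0.69, SE 0.36, adjusted p = 0.267).

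Of the 5 surface receptors, 1 fell and 4 did not pass. Cd2, an adhesion receptor that helps T cells bind other cells and signals with the T-cell receptor, had 172, 95.6 and 178 in T-ALL MBD2-/- cells, against 2799.6, 2517 and 1150.2 in T-ALL wild-type cells. The highest MBD2-/- value was far under the lowest wild-type value (log2 difference -3.66, SE 0.38, adjusted p = 0.000923), 12.7-fold lower on the scale with the added constant. Ptprc, the phosphatase CD45 that keeps Src-family kinases ready, had 5591, 7331 and 5223 in T-ALL MBD2-/- cells and 5645, 6245 and 6426 in T-ALL wild-type cells. The groups overlapped, with a log2 difference near 0 (log2 difference -0.03, SE 0.15, adjusted p = 0.936). The costimulatory receptor Cd28 averaged 1572 ± 386 in T-ALL MBD2-/- and 1071 ± 223 in T-ALL wild-type cells and did not pass without the replicate block (adjusted p = 0.19, and 0.0111 with the block). Cd5 and Cd6, scavenger-type receptors that dampen the signal, had log2 differences of 0.21 and -0.20 and did not pass (adjusted p = 0.482 and 0.452).

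Of the 12 inhibitors of the pathway, 3 rose and 9 did not pass. Ubash3b, a phosphatase that acts on Zap70 and Syk, had 253, 259.7 and 213 in T-ALL MBD2-/- cells and 90.6, 90.3 and 75.02 in T-ALL wild-type cells. These groups were widely separated (log2 difference 1.35, SE 0.12, adjusted p = 0.000492). Ptpn22, a phosphatase that acts on Src-family kinases and Zap70, had 1429.7, 1405 and 1275 in T-ALL MBD2-/- cells and 610.0, 445 and 592 in T-ALL wild-type cells. Its values did not overlap between the genotypes (log2 difference 1.31, SE 0.14, adjusted p = 0.0012). Cblb, a ubiquitin ligase that raises the threshold for activation, averaged 1089.9 ± 449 in T-ALL MBD2-/- and 328 ± 81.1 in T-ALL wild-type cells (SD, n = 3 each). It passed over all 6 arrays (log2 difference 1.62, SE 0.35, adjusted p = 0.0229) and in 1 of the 6 fits that left out 1 array, the one without MBD2-/- replicate 3 (adjusted p 0.0568 to 0.0771 in the others).

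The 9 inhibitors that did not pass had log2 differences from -0.13 for Cbl, a ubiquitin ligase, to 0.73 for Sla2, an adaptor that lowers receptor levels. Sla2 averaged 717 ± 212 in T-ALL MBD2-/- and 422 ± 93.5 in T-ALL wild-type cells, and its relative Sla averaged 1961 ± 334 in T-ALL MBD2-/- and 1348 ± 212 in T-ALL wild-type cells (SD, n = 3 each). Both missed the threshold (adjusted p = 0.0906 for Sla2 and 0.0815 for Sla) and passed with the replicate block (adjusted p = 0.0088 and 0.0253). Ptpn6, the phosphatase SHP-1, had 1379 to 1422 in T-ALL MBD2-/- cells and 897 to 1207 in T-ALL wild-type cells (adjusted p = 0.104). Csk, which phosphorylates the inhibitory site of Src-family kinases, and Pag1, which anchors it at the membrane, had adjusted p of 0.805 and 0.283. The diacylglycerol kinases Dgka and Dgkz, which remove the messenger made by Plcg1, and Ubash3a, a relative of Ubash3b, had log2 differences of 0.11, 0.15 and 0.08 (adjusted p = 0.809, 0.568 and 0.848).

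**Figure D2:**
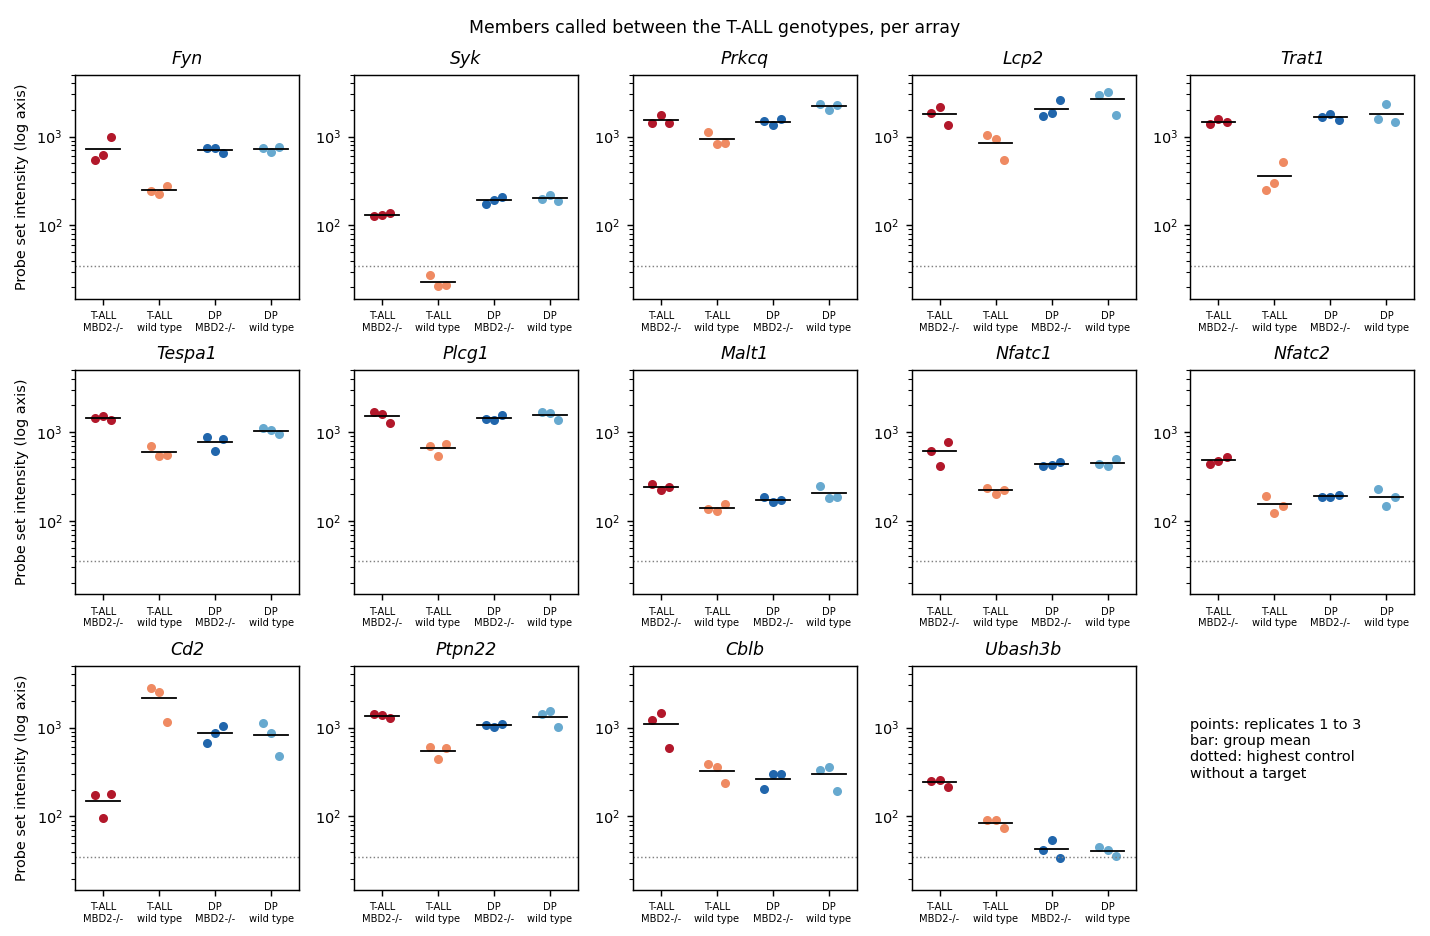
Probe set intensity on a log axis for the 14 members called between the T-ALL genotypes, with points for replicates 1 to 3 of each group, bars at the group mean and a dotted line at the highest control without a target (35.3). In every panel the T-ALL MBD2-/- points lie apart from the T-ALL wild-type points, above them for 13 genes and below them for Cd2, and the 3 T-ALL wild-type points of Syk lie under the dotted line.

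The members have 97 single-gene probe sets in all, 94 of which passed the filter and were tested apart, an alternative added after seeing the data. Of the 14 called members, 11 have 23 other tested probe sets, of which 19 had the direction of the one used, 11 of these passed and none passed in the opposite direction. A second probe set of Fyn gave 1.52 and a second of Trat1 gave 2.02 (adjusted p = 0.000424 and 0.0064). A second of Syk gave 1.05 (adjusted p = 0.0013), and another of Cblb gave 1.81 with a smaller error than the one used (adjusted p = 0.000825). The other tested probe sets of Nfatc2 and Plcg1 averaged under 100 in both leukaemia groups and did not pass. With 1 probe set per gene, 9.19% of all genes tested rose and 6.98% fell. The share over all probe sets was not counted, so the counts here are not a trait of the members. Among the 24 members not called, 4 of 33 other probe sets passed: one each of Sla2 (log2 difference 1.04, adjusted p = 0.00272), Sla (log2 difference 0.98, adjusted p = 0.0389) and Ubash3a (log2 difference 0.77, adjusted p = 0.0181) was higher and one of Cbl (log2 difference -0.68, adjusted p = 0.0331) lower in the MBD2-/- leukaemias.

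**Figure D3:**
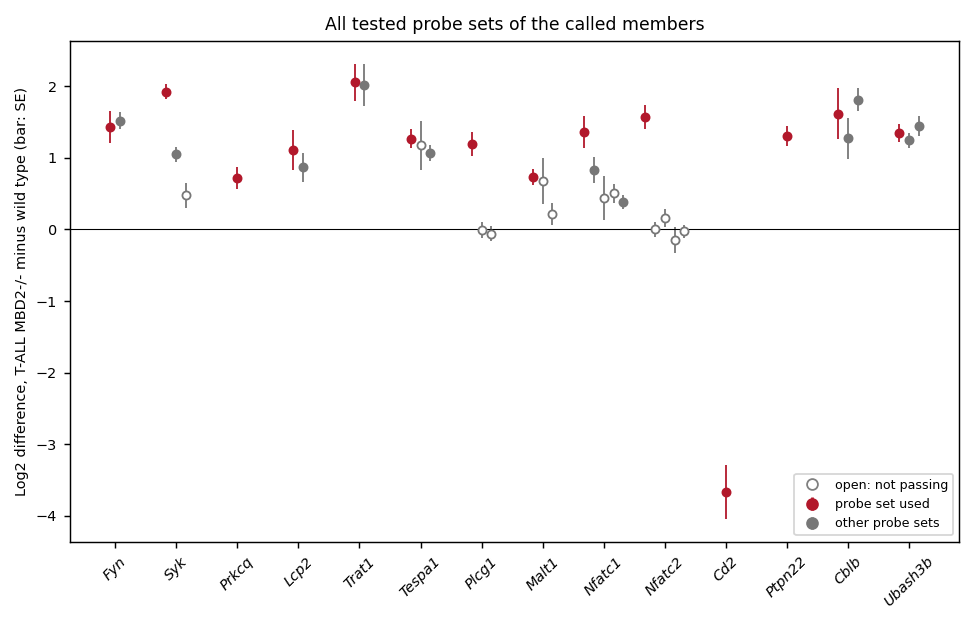
Log2 difference between T-ALL MBD2-/- and T-ALL wild type for each tested probe set of the 14 called members, with the probe set used in red, the others in grey, SE bars, and open points for those that did not pass. Most grey points lie on the side of the red one, and those of Nfatc2 and Plcg1 lie near 0.

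Because Mbd2 binds methylated CpG, the promoters of members that rose are shown with each CG in capitals. Windows of 300 bases, from 250 before to 50 after a RefSeq gene start (GRCm38.p6), were given for 31 members, in 48 entries. CG-dense and CG-poor promoters both occurred among the members that rose, as those of Syk, Fyn, Trat1 and Ubash3b show, and none of these letters tells whether a site is methylated.
Syk, chr13:52583187-52583486, plus strand, 31 CG: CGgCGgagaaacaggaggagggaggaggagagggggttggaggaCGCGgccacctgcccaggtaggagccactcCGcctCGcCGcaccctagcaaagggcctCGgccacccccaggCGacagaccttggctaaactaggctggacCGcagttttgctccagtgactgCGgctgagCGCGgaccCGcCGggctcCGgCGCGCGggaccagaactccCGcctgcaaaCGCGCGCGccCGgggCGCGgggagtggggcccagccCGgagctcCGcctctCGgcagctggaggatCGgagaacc
Fyn, chr10:39369549-39369848, plus strand, 31 CG: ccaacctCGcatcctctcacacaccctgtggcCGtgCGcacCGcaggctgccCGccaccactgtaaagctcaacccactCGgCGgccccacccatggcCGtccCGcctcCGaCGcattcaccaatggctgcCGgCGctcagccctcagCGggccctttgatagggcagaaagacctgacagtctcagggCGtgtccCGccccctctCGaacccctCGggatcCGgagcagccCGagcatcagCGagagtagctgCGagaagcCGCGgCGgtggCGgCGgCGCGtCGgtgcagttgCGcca
Trat1, chr16:48772013-48772312, minus strand, 1 CG: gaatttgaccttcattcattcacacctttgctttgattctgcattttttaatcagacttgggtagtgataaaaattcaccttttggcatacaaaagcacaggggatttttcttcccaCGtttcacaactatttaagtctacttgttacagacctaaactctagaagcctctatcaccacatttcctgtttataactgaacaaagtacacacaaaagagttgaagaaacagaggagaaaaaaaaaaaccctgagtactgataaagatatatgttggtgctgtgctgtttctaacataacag
Ubash3b, chr9:41158013-41158312, minus strand, 5 CG: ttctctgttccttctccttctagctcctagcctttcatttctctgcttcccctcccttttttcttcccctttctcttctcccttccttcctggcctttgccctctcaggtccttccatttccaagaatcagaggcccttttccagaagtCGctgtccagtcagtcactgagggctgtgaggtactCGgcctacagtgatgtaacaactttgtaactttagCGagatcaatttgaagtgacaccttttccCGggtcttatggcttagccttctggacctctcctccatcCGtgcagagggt

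Taking each gene's promoter with the most CG, the median count was 20 (0 to 37) for the 10 members that rose and have a window, 10.5 (2 to 43) for the 20 that did not pass, and 8 (quartiles 3 and 22) for all 27025 genes. At least 1 CG stood in 94.57% of all 32851 promoter windows. TGGGAA, read on either strand and searched as the core of the sequence bound by Rbpj, the DNA-binding partner of Notch1, was found in at least 1 window of 4 of the 10 and 7 of the 20 members, and of 28.31% of all 27025 genes. These counts are descriptions of the letters and were not tested.

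The same deletion in double-positive thymocytes gave no call. None of the 38 members rose or fell, where 0.0195% of all genes tested rose and 0.013% fell, and the median log2 difference was -0.18 over the members and -0.02 over all genes. At an unadjusted p under 0.05 there were 2 members, Prkcq and Tespa1, against 4.68% of all genes tested. Prkcq had 1480.1, 1367 and 1562 in DP MBD2-/- thymocytes, against 2313, 1974 and 2269.9 in DP wild-type thymocytes. All 3 MBD2-/- values were lower, but the difference did not pass after adjustment (log2 difference -0.57, SE 0.11, adjusted p = 0.449). Tespa1 had 889.9, 617 and 845 in DP MBD2-/- and 1104, 1062 and 944 in DP wild-type thymocytes, again lower without overlap and without a call (log2 difference -0.41, SE 0.16, adjusted p = 0.982). All DP MBD2-/- arrays lack the added control transcript and 2 of the 3 DP wild-type arrays carry it, and with that set as a block, where 3 MBD2-/- arrays stand against 1 wild-type array, no member passed either. In that fit 25 of the 38 members had a positive log2 difference and 13 a negative one, with a median of 0.06, against 5 positive and 33 negative without the block.

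Over all 38 members the thymocyte log2 differences ran from -0.78 for Txk to 0.20 for Nfatc3. Both changed sign with the added control set as a block, to 0.15 for Txk and -0.50 for Nfatc3. Syk had 176, 192 and 208 in DP MBD2-/- and 201, 219.9 and 187 in DP wild-type thymocytes. Fyn had 739, 746 and 652 in DP MBD2-/- and 742, 674 and 768 in DP wild-type thymocytes. In both genes the groups overlapped, with log2 differences of -0.07 and -0.03 (SE 0.11 and 0.11). Trat1 had 1677, 1775 and 1532 in DP MBD2-/- and 1585, 2299 and 1473 in DP wild-type thymocytes (-0.08, SE 0.18). Plcg1 had 1419, 1382 and 1547 in DP MBD2-/- and 1691, 1631 and 1363 in DP wild-type thymocytes (-0.10, SE 0.12). Ptpn22 had 1064, 1017 and 1113 in DP MBD2-/- and 1437, 1524 and 1009.8 in DP wild-type thymocytes (-0.29, SE 0.16). The genotypes overlapped for all 3 of these genes.

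Nfatc1 had 415, 424 and 458 in DP MBD2-/- and 441, 412 and 493 in DP wild-type thymocytes, and Nfatc2 had 186, 184 and 197 in DP MBD2-/- and 226, 148 and 187 in DP wild-type thymocytes. Malt1 had 188, 162 and 172 in DP MBD2-/- and 247, 179 and 187 in DP wild-type thymocytes. Each of these overlapped between the genotypes. Cd2, the member that fell in the leukaemias, had 679.8, 881 and 1044 in DP MBD2-/- and 1120.4, 876 and 478 in DP wild-type thymocytes, where its groups also overlapped (0.13, SE 0.31). Ubash3b was dim in both thymocyte groups, with 42.1, 53.9 and 34.0 in DP MBD2-/- and 45.6, 41.4 and 35.7 in DP wild-type cells, the third MBD2-/- value being under the highest control without a target.

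Whether the genotype effect differed between leukaemia and thymocyte was tested directly over all 12 arrays. The effect in T-ALL minus the effect in DP was positive for 13 members, negative for 1 and did not pass for 24, where 7.86% of all genes tested passed as positive and 4.74% as negative. The median was 0.67 over the members and -0.05 over all genes. The positive ones were Syk (1.99), Trat1 (2.14), Cblb (1.75), Tespa1 (1.68), Ptpn22 (1.59), Nfatc2 (1.54), Fyn (1.46), Lcp2 (1.45), Nfatc1 (1.41), Ubash3b (1.30), Plcg1 (1.29), Prkcq (1.28) and Malt1 (0.94), with adjusted p from 3.17e-06 for Syk to 0.0418 for Lcp2. Cd2 was the negative one (log2 difference -3.80, SE 0.54, adjusted p = 0.000622). Zap70 did not pass here either (log2 difference 1.02, SE 0.35, adjusted p = 0.0876). The calls of Cblb and Lcp2 were lost in 9 and 8 of the 12 fits that left out 1 array (adjusted p 0.0505 to 0.0843 for Cblb and 0.0597 to 0.1 for Lcp2), and those of Malt1, Nfatc2 and Plcg1 with the mean of probe sets (adjusted p = 0.087, 0.353 and 0.104).

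Set against double-positive thymocytes, the wild-type leukaemias had lower levels of most members. Of the 38, 2 were higher in T-ALL wild-type cells, 28 were lower and 8 did not pass, where 19.7% of all genes tested were higher and 14.2% lower, and the median log2 difference was -0.97 over the members and 0.06 over all genes. In the MBD2-/- cells, 8 members were higher in T-ALL than in DP, 17 were lower and 13 did not pass, where 18.5% of all genes tested were higher and 11% lower, with medians of -0.28 over the members and 0.01 over all genes. The leukaemias and thymocytes differ in tissue, transplantation and Notch1 drive at once, so these cannot be told apart. The T-ALL and DP arrays here are those of the genotype comparisons, so the values of one set of differences are tied to those of the other.

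**Figure D4:**
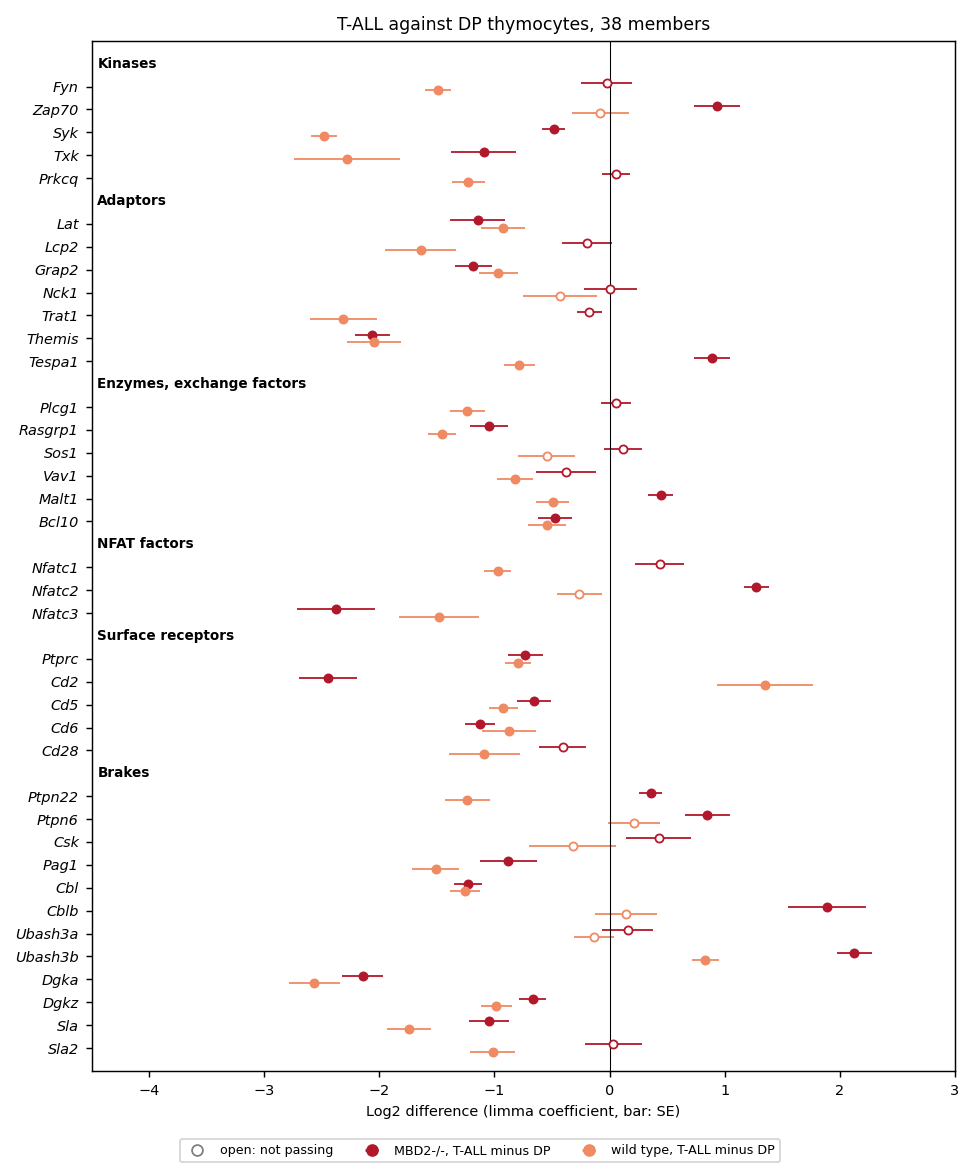
Log2 difference of the 38 members by role between T-ALL and DP thymocytes, for MBD2-/- cells (red) and wild-type cells (orange), with 3 arrays per group; bars are SE and open points did not pass. Most orange points are filled and left of 0, while red points of Fyn (-0.03), Plcg1 (0.06) and Trat1 (-0.18) are open and near 0.

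Among the kinases, 4 of 5 were lower in T-ALL wild-type cells than in DP wild-type cells. Syk was at least 5.73-fold lower there (log2 difference -2.48, SE 0.11, adjusted p = 1.9e-05), and in MBD2-/- cells it was lower in T-ALL by a smaller log2 difference (log2 difference -0.49, adjusted p = 0.0108). Fyn was lower in T-ALL wild-type cells (log2 difference -1.49, SE 0.11, adjusted p = 0.000113), and between the MBD2-/- groups its difference was -0.03 (SE 0.22, adjusted p = 0.953). Prkcq gave -1.23 between the wild-type groups (adjusted p = 0.000732) and 0.05 between the MBD2-/- groups (SE 0.12, adjusted p = 0.812). Zap70 had 726, 978 and 1150.2 in DP MBD2-/- and 1651, 1361 and 995 in DP wild-type thymocytes, beside the leukaemia values above. It was higher in T-ALL in the MBD2-/- comparison (log2 difference 0.94, SE 0.20, adjusted p = 0.0116), without overlap, and did not pass in the wild-type comparison (-0.08, adjusted p = 0.856). Txk was lower in both (-1.09 in MBD2-/- and -2.28 in wild-type cells).

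Among the adaptors, 3 of 7 were lower and 1 was higher in T-ALL in the MBD2-/- comparison, and 6 were lower in the wild-type comparison. Themis had 3036, 3771 and 3323 in DP MBD2-/- and 4124, 5953 and 3141 in DP wild-type thymocytes, each above every leukaemia value. It was lower in T-ALL in MBD2-/- cells (-2.06, SE 0.15, adjusted p = 9.13e-05) and in wild-type cells (-2.04, SE 0.23, adjusted p = 0.000656). Its leukaemia arrays gave 725, 964 and 715 in T-ALL MBD2-/- and 1022, 1169.7 and 890.3 in T-ALL wild-type cells. Lat had 4727, 5605 and 7264 in DP MBD2-/- and 7754, 7113 and 5272 in DP wild-type thymocytes. Both comparisons gave lower Lat in T-ALL (log2 difference -1.15, adjusted p = 0.00968 in MBD2-/- cells, and -0.92 and 0.00948 in wild-type cells). Grap2 had 136, 92.9 and 132 in DP MBD2-/- and 159, 109 and 167 in DP wild-type thymocytes, and was lower in T-ALL in both (-1.18 in MBD2-/- and -0.97 in wild-type cells, adjusted p = 0.00149 and 0.00456). Trat1 was lower in T-ALL between the wild-type groups (log2 difference -2.31, adjusted p = 0.000958) and did not pass between the MBD2-/- groups (log2 difference -0.18, adjusted p = 0.296). Tespa1 was higher in T-ALL in MBD2-/- cells (log2 difference 0.89, adjusted p = 0.00453) and lower in T-ALL in wild-type cells (log2 difference -0.79, adjusted p = 0.00389).

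Rasgrp1 had 2472, 2639.9 and 2587 in DP MBD2-/- and 2591, 2999 and 2691 in DP wild-type thymocytes, all above the leukaemia values given earlier. It was lower in T-ALL in MBD2-/- (log2 difference -1.05, adjusted p = 0.00292) and in wild-type cells (log2 difference -1.46, adjusted p = 0.000163). Plcg1 was lower in T-ALL in wild-type cells (log2 difference -1.24, adjusted p = 0.000856) and gave 0.06 in MBD2-/- cells (SE 0.13, adjusted p = 0.81), a value that turned to -0.27 and passed (adjusted p = 0.0387) when its probe sets were averaged. Nfatc3 had 2735, 2312 and 2694 in DP MBD2-/- and 1316, 2324 and 3639 in DP wild-type thymocytes, with a wide spread in the wild type. It was lower in T-ALL in both genotypes (-2.37 in MBD2-/- and -1.48 in wild-type cells, adjusted p = 0.0019 and 0.0149). Nfatc2 was higher in T-ALL MBD2-/- than in DP MBD2-/- cells (log2 difference 1.28, adjusted p = 0.000159) and did not pass between the wild-type groups (log2 difference -0.26, adjusted p = 0.378). Nfatc1 was lower in T-ALL wild-type cells (log2 difference -0.97, adjusted p = 0.000709) and did not pass in MBD2-/- cells (log2 difference 0.43, adjusted p = 0.188).

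Of the surface receptors, Ptprc had 9092, 10417 and 10371 in DP MBD2-/- and 10617, 11589 and 9637 in DP wild-type thymocytes, and was lower in T-ALL in both comparisons (-0.73 in MBD2-/- and -0.79 in wild-type cells, adjusted p = 0.00956 and 0.00163). Cd6 had 722, 781 and 619.6 in T-ALL MBD2-/- cells and 1402, 1585 and 1706 in DP MBD2-/- thymocytes, without overlap (log2 difference -1.13, adjusted p = 0.000688). In wild-type cells Cd6 had 931, 828 and 688 in T-ALL and 1684, 1902 and 1040.2 in DP, where the call was lost in 4 of 6 fits with 1 array left out (log2 difference -0.87, adjusted p = 0.0264). Cd2 was lower in T-ALL MBD2-/- than in DP MBD2-/- cells (log2 difference -2.45, SE 0.25, adjusted p = 0.000403), and higher in T-ALL wild-type than in DP wild-type cells (log2 difference 1.35, SE 0.41, adjusted p = 0.0423), a call also lost in 4 of 6 such fits.

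Of the 12 inhibitors, 4 were higher and 5 lower in T-ALL than in DP in MBD2-/- cells, and 1 was higher and 7 were lower in wild-type cells. Dgka had 581, 866 and 619 in T-ALL MBD2-/- and 2637, 3299 and 3282 in DP MBD2-/- cells, against 759, 670.0 and 489 in T-ALL wild-type and 4289, 4432 and 2888 in DP wild-type cells. The leukaemia groups lay under the thymocyte groups in both genotypes (-2.15 in MBD2-/- and -2.56 in wild-type cells, adjusted p = 0.000152 and 0.000196). Cbl had 1677, 2015 and 1929 in T-ALL MBD2-/- and 3973, 4570.2 and 4717 in DP MBD2-/- cells, against 1817, 2293 and 2043 in T-ALL wild-type and 5344, 4997 and 4378 in DP wild-type cells. It too was lower in both (-1.23 in MBD2-/- and -1.25 in wild-type cells, adjusted p = 0.000334 and 0.000415). Sla had 1922, 2313 and 1649 in T-ALL MBD2-/- and 3320.2, 4178 and 4713 in DP MBD2-/- cells, against 1561, 1345 and 1137 in T-ALL wild-type and 4914, 5298 and 3514 in DP wild-type cells. Its differences were -1.05 in MBD2-/- and -1.74 in wild-type cells (adjusted p = 0.00395 and 0.000521). Dgkz had 4432, 5373 and 5392 in T-ALL MBD2-/- and 8339.9, 7993 and 7729.9 in DP MBD2-/- cells, and was lower in T-ALL in MBD2-/- (log2 difference -0.67, adjusted p = 0.00446) and in wild-type cells (log2 difference -0.98, adjusted p = 0.00147). Pag1 had 857, 831 and 688 in T-ALL wild-type and 3019.7, 2207 and 1764 in DP wild-type cells, the leukaemia arrays all lower (log2 difference -1.51, adjusted p = 0.00134).

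Ubash3b was higher in T-ALL in both comparisons, by 2.13 in MBD2-/- cells (SE 0.15, adjusted p = 7.62e-05) and by 0.83 in wild-type cells (SE 0.12, adjusted p = 0.00162). Cblb averaged 267 ± 56.8 in DP MBD2-/- thymocytes and was higher in T-ALL MBD2-/- cells (log2 difference 1.89, adjusted p = 0.00497), with no call between the wild-type groups (log2 difference 0.14, adjusted p = 0.753). Ptpn6 was higher in T-ALL MBD2-/- cells (log2 difference 0.85, adjusted p = 0.0153) and did not pass between the wild-type groups (log2 difference 0.21, adjusted p = 0.55). Ptpn22 was lower in T-ALL in wild-type cells (log2 difference -1.24, adjusted p = 0.00264) and higher in MBD2-/- cells (log2 difference 0.36, adjusted p = 0.034), the second call being lost in 5 of 6 fits with 1 array left out. With the replicate block, Nck1 (0.0269), Sos1 (0.0356), Nfatc2 (0.0485) and Csk (0.0399) also passed as lower in T-ALL wild-type cells, with the adjusted p in parentheses. In that fit 2937 of all 15420 genes tested were lower. The labels do not state this pairing, which was taken from the data. Replicates 1 and 2 of both wild-type groups carry the added control transcript and replicate 3 does not, so the block also follows that set of arrays.

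In wild-type cells Lcp2 (-1.64), Cd28 (-1.09), Sla2 (-1.02), Cd5 (-0.93), Vav1 (-0.82), Bcl10 (-0.54) and Malt1 (-0.49) were lower in T-ALL, with the log2 difference in parentheses. Of these, Cd5 (-0.66) and Bcl10 (-0.48) were also lower and Malt1 (0.45) was higher in T-ALL MBD2-/- than in DP MBD2-/- cells, as Pag1 was lower (-0.88). Csk, Nck1, Sos1 and Ubash3a passed in neither comparison. In wild-type cells, leaving out 1 array ended the call of Cd28 in 5 of 6 fits, of Bcl10 in 4, of Malt1 in 3 and of Nfatc3 in 2. In MBD2-/- cells it ended the call of Bcl10 in 5 of 6 fits, of Pag1 in 4, of Malt1 in 3, of Ptpn6 and Txk in 2 each and of Cd5 in 1. With the mean of probe sets, Tespa1, Nfatc2 and Bcl10 no longer passed between the MBD2-/- groups (adjusted p = 0.332, 0.378 and 0.206). Between the wild-type groups that setting gave -0.06 for Malt1 and -0.30 for Bcl10, neither of which passed (adjusted p = 0.781 and 0.365).

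Other genes of the pathway, from a list of 81 of which 68 had a probe set and were tested, were read in the same fits. In T-ALL MBD2-/- against T-ALL wild-type cells, 18 rose, 2 fell and 48 did not pass, with a median of 0.17, where 9.19% of all genes tested rose and 6.98% fell. Vav3, a Rac exchange factor, had 575, 595 and 575 in T-ALL MBD2-/- cells and 36.2, 35.3 and 22.4 in T-ALL wild-type cells (log2 difference 3.67, SE 0.14, adjusted p = 1.38e-05). The wild-type values lay near or under the highest control without a target (35.3), so the call stands on a group at background and its size is not well measured. Lax1, an adaptor that dampens signalling, Spred1, an inhibitor of Ras signalling, and Dusp5, a phosphatase of ERK, rose by 2.11, 1.68 and 1.24. Cd3e, a chain of the receptor complex itself, did not pass (log2 difference 0.24, adjusted p = 0.35). In DP thymocytes 0 of the 68 passed by limma after adjustment, and 11 had an unadjusted p under 0.05, where 4.68% of all genes tested did. The effect in T-ALL minus that in DP passed as positive for 15, as negative for 2 and not for 51, where 7.86% of all genes tested were positive and 4.74% negative, with Vav3 (4.23), Dusp2 (2.33), Lax1 (2.25) and the adaptor Dok2 (2.38) at the smallest p.

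Between T-ALL and DP, 15 of the 68 were higher and 18 lower in MBD2-/- cells, where 18.5% of all genes tested were higher and 11% lower. In wild-type cells 5 were higher and 24 lower, where 19.7% of all genes tested were higher and 14.2% lower. Cd3e was lower in T-ALL in both (-0.55 in MBD2-/- and -0.99 in wild-type cells, adjusted p = 0.024 and 0.0007), and in MBD2-/- cells it lost the call in 4 of 6 fits with 1 array left out (adjusted p 0.07 to 0.081). Cd247, the zeta chain that carries most docking sites for Zap70, the kinase Tec and the adaptor Fyb were lower in T-ALL wild-type cells, with log2 differences of -2.08, -1.87 and -1.27. In T-ALL MBD2-/- cells Vav3 (2.95), the phosphatase Dusp2 (2.20) and the inhibitory receptors Pdcd1 (2.78) and Btla (2.13) were higher than in DP MBD2-/- cells, with adjusted p from 4e-06 for Vav3 to 0.000105 for Btla.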

How the data were processed

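Per the labels, biotin cRNA was made from 7 µg of total RNA. The authors deposited linear probe set intensities, 3.07 to 21620 in the file, and how they were summarized and normalized is not stated here. No detection calls were used, and the number of arrays limits the precision. The log2 medians of the arrays ran from 5.71 to 5.79, so no second normalization was made. Of 45101 probe sets, the platform annotation ties 34945 to 1 gene, 932 to several and 9160 to none, beside 64 controls; the brightest single-gene probe set on average stood for its gene. Genes that exceeded the 25th percentile of an array on 3 arrays or more were fitted on log2(value + 16) with limma 3.58.1 in R 4.3.3 (lmFit, eBayes), each pair of groups in its own fit, and called at a Benjamini-Hochberg adjusted p under 0.05. The difference of effects was fitted over all 12 arrays. The fit was run on simulated data with noise drawn independently for each gene and array. That simulation held no array sets, RNA-length differences or replicate pairs, so it cannot speak to them. Plots used matplotlib 3.10.9.

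The members and lists were chosen with earlier results of these data known. Values on each array are given for up to 12 members per comparison with the smallest p among those called, and for Zap70, Lat and Ptprc; of the other pathway genes, up to 4 with the smallest p per comparison and Cd3e are named. Grap2, Cd6, Dgkz and Pag1 enter by the T-ALL to DP comparisons. The probe sets named apart from those used were chosen after their values were seen.

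Whether equal replicate numbers pair samples was checked by the correlation of deviations from group means: 0.40, 0.24 and 0.55 for the leukaemia genotypes and 0.45, 0.44 and 0.58 for the wild-type cell types, where the numbers were taken as pairs from the data; -0.52, 0.14 and -0.49 between thymocyte genotypes and -0.39, 0.09 and -0.43 between MBD2-/- leukaemias and thymocytes, where they were not. Alternatives were quantile normalization, 75th percentile centring, no filter or the array median as filter, the mean of probe sets, constants of 1 and 64, trend and robust, the replicate number or added control set as a block, all 12 arrays in each fit, and each array left out. Fits on arrays with or without the added control transcript, with the Gapdh ratio as covariate, and on each probe set were added after seeing the data.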

Additional observations from a re-analysis of the deposited data

Results flagged for a closer look

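The MBD2-/- effect differed between T-ALL and DP thymocytes, by limma's test of the difference itself over all 12 arrays, for 14 members. On the log2 scale the effect in T-ALL minus the effect in DP was Syk 1.99, Tespa1 1.68, Cd2 -3.80, Ptpn22 1.59, Prkcq 1.28, Ubash3b 1.30, Nfatc2 1.54, Trat1 2.14, Plcg1 1.29, Fyn 1.46, Nfatc1 1.41, Malt1 0.94, Cblb 1.75 and Lcp2 1.45. Cd2 was the only one of these 14 with a negative value. The adjusted p ran from 3.17e-06 for Syk to 0.0418 for Lcp2. All DP MBD2-/- arrays lack the added control transcript that 2 of 3 DP wild-type arrays carry. With that set as a block all 14 still passed.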

How the results depend on the processing

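Of the called members, 10 of 14 between the T-ALL genotypes, 24 of 30 between the wild-type cell types, 16 of 25 between the MBD2-/- cell types and 9 of 14 for the difference of effects passed in every alternative planned. Between the T-ALL genotypes, members lower numbered 2, Grap2 beside Cd2, with quantile normalization, 75th percentile centring, an added constant of 1, trend and robust, the replicate block and the Gapdh ratio as covariate, and 2, Themis beside Cd2, on only the arrays with the added control transcript, 1 MBD2-/- array against 2. On the arrays without it, 0 were higher and 0 lower, in a fit of 2 arrays against 1. On those arrays, where each wild-type group has 1 array, 4 members passed as positive for the difference of effects. A lone array is assumed to vary like the other groups, so no conclusion is drawn from these 4 calls. In that fit the median difference of effects was 0.61 over the members and -0.03 over all genes tested. Of all 15420 genes tested between the T-ALL genotypes, 1314 were lower with quantile normalization and 1656 with 75th percentile centring. The number was 1189 with a constant of 1, 1154 with trend and robust, 1936 with the replicate block and 1302 with the Gapdh ratio. It was 1076 in the main fit. Between the wild-type cell types, members higher numbered 1 with no filter and with a constant of 64. Plcg1 reversed between the MBD2-/- cell types, to -0.27 with the mean of probe sets (main value 0.06), which its dim probe sets enter. No filter and a constant of 64 also ended the calls of Cd2 and Cd28 between the wild-type cell types and of Pag1 between the MBD2-/- ones, and several settings ended those of Malt1, Bcl10, Ptpn22 and Txk between cell types. The cause of the other changes was not tested. Leaving out 1 array gave 10 to 13 members higher and 1 to 2 lower between T-ALL genotypes. Of all 15420 genes tested, 877 to 1432 were higher and 535 to 1057 lower. In DP it gave 0 to 0 members, where 0 to 2 of all genes were higher and 1 to 2 lower. Between wild-type cell types 1 to 2 members were higher and 23 to 28 lower. Of all genes, 2333 to 2994 were higher and 1568 to 2352 lower. Between MBD2-/- cell types 5 to 8 members were higher and 14 to 16 lower. Of all genes, 2038 to 2861 were higher and 1252 to 1622 lower. For the difference of effects 11 to 15 members were positive and 1 to 1 negative. Of all genes, 953 to 1294 were positive and 562 to 809 negative. Apart from the calls given beside the results, the replicate block changed calls between the MBD2-/- cell types, where the numbers do not pair: Txk (0.0852), Malt1 (0.0501), Bcl10 (0.114), Ptpn22 (0.116) and Pag1 (0.108) no longer passed, with the adjusted p in parentheses.

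Signal over background limits Syk and Vav3 in T-ALL wild-type cells, Txk and Ubash3b, whose lowest arrays lie under the highest control without a target. Over all alternatives, genes higher and lower between the T-ALL genotypes numbered 0 to 1935 and 0 to 1936.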
